A study of Mus musculus with 6 samples.

Results

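The siRNA against SPT6 was compared with a negative control siRNA in NIH3T3 cells, an established line of mouse embryo fibroblasts, after interferon beta (IFN-beta). It uses 4 of the 6 libraries in the series, picked by their titles: 2 with negative control siRNA and 2 with SPT6 siRNA, each with a replicate number of 1 or 2. All 4 samples carried siRNA for 48 h by lipid transfection and then recombinant mouse IFN-beta at 100 units/ml for 4 h, so the controls had the transfection and the interferon too. The other 2 libraries, 1 with control and 1 with SPT6 siRNA, had the same siRNA for 48 h and no IFN-beta, and both carry replicate number 1. The labels do not say how many siRNA sequences were used, so loss of SPT6 cannot be told apart from other effects of the siRNA. They also do not say whether replicates were separate cultures, so p-values here reflect the scatter of these libraries alone, and that scatter may be technical.

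SPT6, encoded by Supt6, is a histone chaperone that travels with elongating RNA polymerase II and helps to put nucleosomes back behind it. It binds the polymerase together with SPT5, the PAF1 complex and IWS1, and its loss in other systems disturbs elongation, histone H3 lysine 36 methylation and transcription from inside genes. IFN-beta acts through its receptor, the kinases JAK1 and TYK2 and a complex of STAT factors with IRF9, which switches on antiviral genes such as the Ifit, Oas and Mx families. These antiviral genes go from almost silent to highly transcribed within hours.

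The files count reads per gene for 24062 gene symbols. The SPT6 siRNA library was the shallower one in each number: 9861581 gene counts against 13951889 in number 1 and 11174825 against 17596498 in number 2. Reads in no annotated feature took 35.9% and 37.5% with SPT6 siRNA against 34.4% and 33.8% with control, while in the untreated pair they took 35.3% and 37.1%. The ribosomal RNA gene Rn45s held 2.39% of gene counts in SPT6 siRNA number 2 and 1.04% to 1.29% in the other 3. All 10 fibroblast markers were detected. Markers of other lineages summed to between 0.215 and 18.9 CPM (counts scaled to a common library total), by library size alone, for each list in each of the 4. Epcam, Krt5, Myod1 and Cd3e were at 0 counts in all 4. The endothelial marker Vwf had 11 and 6 counts in the controls and 17 and 47 after SPT6 siRNA and was called higher (2.37 ± 0.44), and the neuronal marker Map2 had 166 and 216 against 73 and 95 and was called lower (-0.67 ± 0.20). Unless said otherwise, levels below are CPM normalised for library size and composition.

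The targeted gene came first. Supt6, a protein-coding gene on the minus strand of chromosome 11 (78206746 to 78245987 in GRCm38), had 176 and 188 CPM in the controls. With SPT6 siRNA it had 108 and 88.7 CPM. Both SPT6 siRNA libraries lay below both controls. On the log2 scale the change came to -0.89 ± 0.14 (SE; ratio 0.539, adjusted p = 0.00044), with -0.70 within number 1 and -1.08 within number 2. In the untreated pair Supt6 had 102 CPM against 175.

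Differences were tested with edgeR's quasi-likelihood test within replicate number, that is with the number as a block, over 12558 genes. At a Benjamini-Hochberg adjusted p under 0.05, 1143 genes (9.1%) were called higher and 985 (7.84%) were called lower with SPT6 siRNA. These calls rest on the block. Without it the same 4 libraries gave 0 calls (smallest adjusted p = 0.124; 1493 genes at an unadjusted p under 0.05, against 3865 with the block), and DESeq2 with the block called 335 higher and 289 lower. The libraries differed between numbers 1 and 2 in a shared way: over the genes tested, the deviations of the control and of the SPT6 siRNA libraries from their group means correlated at 0.625. The labels do not say that a number marks a shared culture or day, and 2 pairs leave 1 residual degree of freedom. Scaling by library size alone gave 1650 higher and 778 lower, so that 68% of calls were higher in place of 53.7%. The words rose, fell and called below refer to the blocked edgeR test. Each count of list members called is to be read beside the 9.1% higher and 7.84% lower of all genes tested. Unless a sentence says otherwise, levels are given for the controls first and for SPT6 siRNA second, each in the order of numbers 1 and 2, and ± is the SE of the log2 difference.

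The called genes were not evenly split by size. Among those higher, 370 differed more than 2-fold, and among those lower 49 did. Changes past 1.5-fold in both numbers were seen in 661 genes upward (5.26% of those tested) and 253 downward (2.01%). Those 661 genes were low in level. The median of their mean counts was 36.5, against 193.75 for the 253 downward genes. Per kb of exon their median level was 1.05 CPM, against 4.14 for the downward genes and 6.72 for all tested. The part of low counts in this asymmetry was not tested. Differences were more often larger in number 2: this held for 75.9% of the genes called higher, 73.6% of those called lower and 62.7% of all genes tested. The 2 numbers share no library, and 8892 of the 12558 genes tested moved in the same direction in both.

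**Figure D1:**
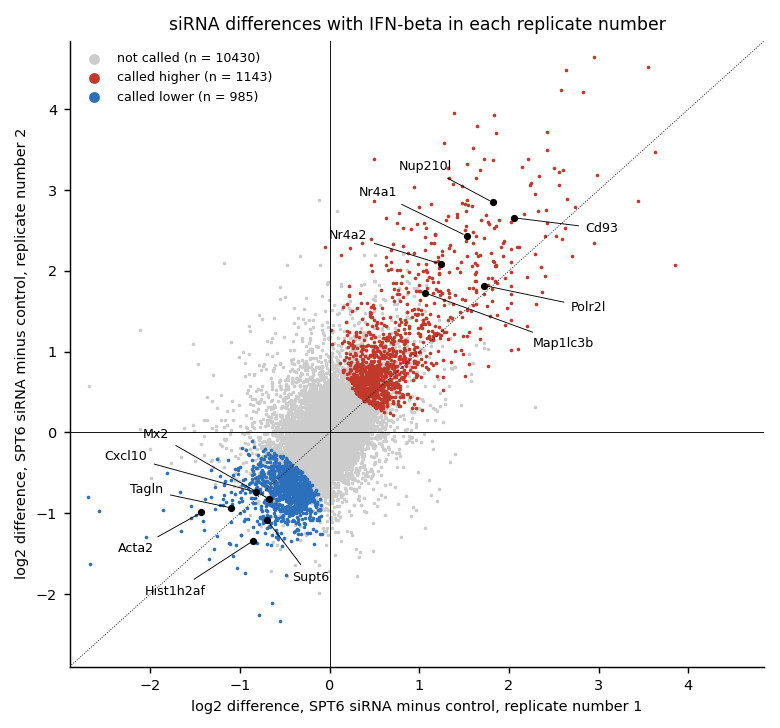
Each point is 1 of 12558 genes, with its log2 difference (SPT6 siRNA minus control, both with IFN-beta) in replicate number 1 on the horizontal axis and in number 2 on the vertical axis; red and blue mark the 1143 genes called higher and the 985 called lower, and the dotted line marks equal differences. The upper right arm reaches further from 0 than the lower left one, and Supt6 lies at -0.70 and -1.08.

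The largest rises among well-measured genes were in genes of unlike function. Cd93, a transmembrane receptor gene best known from endothelium and myeloid cells (chromosome 2, 148436640 to 148443563), rose from 12 and 8.77 CPM to 50.3 and 56.2 CPM. The 4 libraries formed 2 separate groups, and the log2 difference was 2.37 ± 0.17 (adjusted p = 2.42e-07). Polr2l (chromosome 7, 141471860 to 141475132) encodes RPB10, a small subunit shared by all nuclear RNA polymerases. It went from 39.3 and 44 CPM to 130 and 155 CPM (1.78 ± 0.14, adjusted p = 2.42e-07), and from 28.8 to 137 CPM in the untreated pair. Tgoln1, for a trans-Golgi network protein, went from 23.4 and 24.2 CPM to 80.1 and 91.4 CPM (1.85 ± 0.14). The nucleoporin-like gene Nup210l had the largest difference of the 15 highest, 2.42 ± 0.22. Others were Oplah, an enzyme of glutathione turnover (2.34), the keratin gene Krt80 (2.11), the lipid transfer gene Mttp (2.05), the endocytic receptor gene Cubn (2.01), Col7a1 (1.94), Itgb7 (1.89), Col20a1 (1.68), Atp8b4 (1.67), and Nr4a1 and Nr4a2, which are described further on. In all 15 both SPT6 siRNA libraries lay above both controls, which the naming rule required, as did 23% of all genes tested.

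The 15 lowest moved less. Acta2, smooth muscle actin (chromosome 19, 34241090 to 34255590), fell from 1307 and 559 CPM to 485 and 281 CPM, a log2 difference of -1.21 ± 0.16 (adjusted p = 9.5e-05). Col11a1, a fibrillar collagen gene, fell from 93.3 and 69.9 CPM to 46.7 and 35 CPM (adjusted p = 0.00011). Gmnn, which encodes the replication licensing inhibitor geminin, was at 12.4 and 21.6 CPM against 8.26 and 8.82 CPM (-0.97 ± 0.20). The rest of the 15 ran from Cdsn (-1.34 ± 0.22) and the imprinted gene Rtl1 (-1.33 ± 0.21) through Hist1h2af, Crocc, Mapk11, Zfp618, Ska2, Tagln, Bc1 and Plekha4 to Ddah2 and Tgfb1i1. All 15 were below 0 in the untreated pair too.

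**Figure D2:**
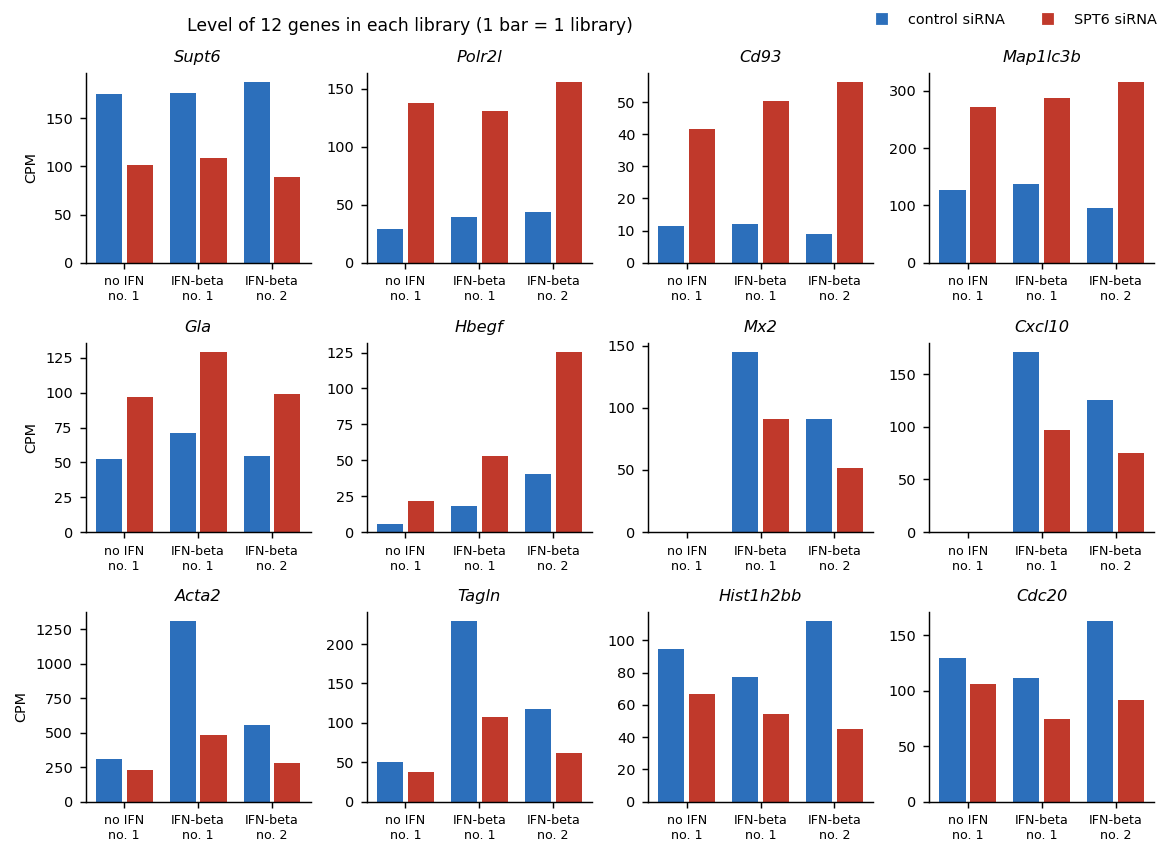
Bars give the level of 12 genes in each of the 6 libraries in CPM, blue for control and red for SPT6 siRNA, in pairs for the untreated cells and for replicate numbers 1 and 2 with IFN-beta; each bar is 1 library, so there are no error bars. The order of blue and red is the same in the 3 pairs for the 10 genes other than Mx2 and Cxcl10, which were at 0 to 0.482 CPM without IFN-beta.

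Interferon-stimulated genes were lower with SPT6 siRNA within each number. Of 107 tested, 56 were called lower and 1 higher, and 96 lay below 0, against 52% of all genes. Their median log2 difference was -0.46 (-0.40 in number 1 and -0.48 in number 2), beside -0.02 for all genes. DESeq2 called 27 of them lower and 0 higher. In the untreated pair their median was 0.01. Some of them, such as Mx2 and Cxcl10, were near 0 CPM there. At such levels the constant added before the log pulls differences towards 0, and its part in that median was not tested. The cells of number 2 had lower levels of most of these genes with either siRNA, so only 13 of the 107 had both SPT6 siRNA libraries below both controls, beside 21.1% of all genes tested.

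Ifit1, an antiviral RNA-binding protein gene (chromosome 19, 34640871 to 34650009), illustrates the overlap. Its control levels were 1719 and 826 CPM, and its SPT6 siRNA levels 1064 and 445 CPM. SPT6 siRNA was lower in each number, but its number 1 lay above control number 2, and the log2 difference was -0.79 ± 0.16 (adjusted p = 0.0032). Mx1, of the Mx antiviral GTPases, was at 82.9 and 40.4 CPM against 45.8 and 17.8 CPM (-1.01 ± 0.15, adjusted p = 0.00019), with the same overlap. Cxcl10, a T cell attracting chemokine gene, was at 171 and 125 CPM against 96.8 and 75.1 CPM (-0.78 ± 0.13, adjusted p = 0.00076), with no overlap, and so was Mx2 at 145 and 91.1 CPM against 90.8 and 51.4 CPM (-0.75 ± 0.13). Of a panel of 12 such genes, 11 were called lower. Beside those named, they included Ifit3 (-0.78), Rsad2 or viperin (-0.66), Oasl2 (-0.64), Isg15 (-0.60), Ifit2 (-0.48) and Usp18, a brake on the receptor (-0.45). Irf7, a transcription factor of the pathway, had a difference of -0.40 ± 0.15 (adjusted p = 0.066).

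The promoter shown was picked by p from called members whose upstream bases outside GENCODE exons hold an element that interferon-activated factors bind. I830012O16Rik, also known as Ifit3b, fell from 310 and 150 CPM to 187 and 69.5 CPM (-0.91 ± 0.14, adjusted p = 0.00039). The sequence is chr19:34607707-34607956, plus strand, the 250 bases before the start of the gene in RefSeq (GRCm38.p6). Capitals mark matches to the core of the interferon-stimulated response element, GAAA repeated with 2 free bases between and read on either strand, here 188 to 179 and 154 to 145 bases before the start.
I830012O16Rik: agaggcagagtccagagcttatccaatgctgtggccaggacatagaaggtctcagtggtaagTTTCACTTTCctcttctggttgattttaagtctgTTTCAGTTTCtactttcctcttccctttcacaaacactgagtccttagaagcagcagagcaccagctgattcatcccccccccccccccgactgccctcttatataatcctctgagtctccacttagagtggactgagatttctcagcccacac
Of all 32851 promoters of the RefSeq table, taken from 250 bases before to 50 after the start, 3.44% held this core. The share within the list is not given and was not used as a check. Of its tested members 77.6% had a promoter in the table, and the list was drawn up to hold interferon-stimulated genes.

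**Figure D3:**
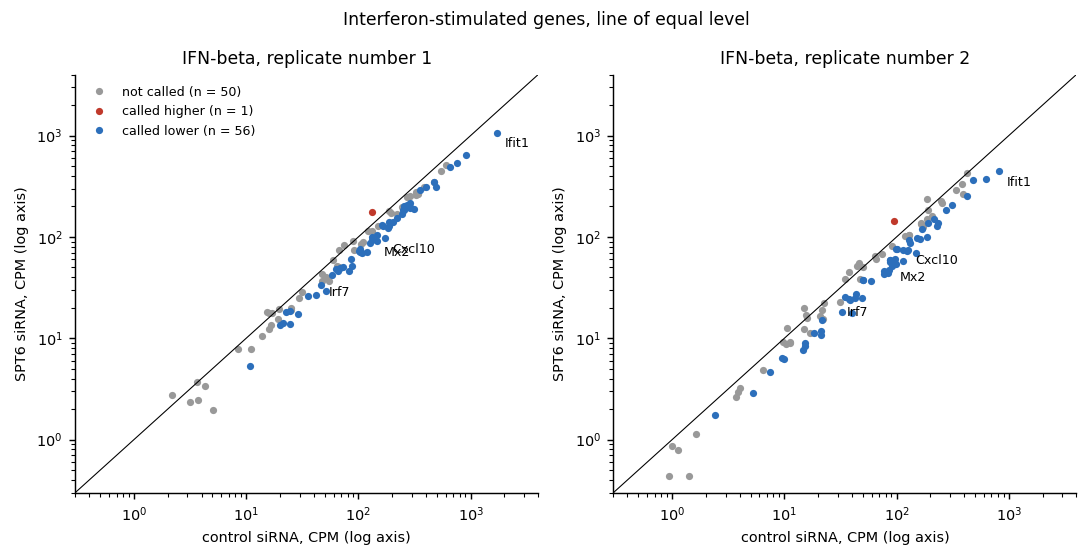
Each point is 1 of 107 interferon-stimulated genes, with its CPM in the control siRNA library on the horizontal axis and in the SPT6 siRNA library on the vertical axis, both log axes, for replicate numbers 1 and 2; the line marks equal levels. Most points lie just below the line over the whole range of levels, and the 1 red point, H2-D1, lies above it.

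Not all interferon-linked genes moved together. H2-D1, a classical MHC class I gene, rose from 132 and 94.3 CPM to 177 and 143 CPM (0.51 ± 0.13, adjusted p = 0.015), and did so in the untreated pair too (89.2 to 144 CPM). The peptide transporter genes Tap1 (-0.50 ± 0.13) and Tap2 (-0.46 ± 0.14) and the immunoproteasome subunit genes Psmb9 (-0.62 ± 0.19) and Psmb10 (-0.48 ± 0.14) fell. They were the 4 called lower (19%) among 21 antigen presentation genes, with H2-D1 the 1 called higher (4.76%), beside 7.84% and 9.1% of all genes tested. DESeq2 called 0 of the 21. Among 22 genes of the JAK-STAT pathway and the receptor, 5 were called lower and 0 higher (DESeq2: 2 lower), among them Stat2 (-0.44 ± 0.14), Usp18, Socs2 (-0.70 ± 0.15) and Stat5a (-0.58). The receptor genes Ifnar1 and Ifnar2 had differences of 0.00 and -0.01, and Tyk2 0.03. Cd274, the PD-L1 gene, was at 16.1 and 14.9 CPM against 17.9 and 19.7 CPM (0.28 ± 0.17, adjusted p = 0.27).

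Genes of cell division were lower. Of 57 mitosis genes all lay below 0, 47 were called lower and 0 higher (DESeq2: 12 lower), with a median of -0.59. For 51 of the 57 both SPT6 siRNA libraries lay below both controls, beside 21.1% of all genes tested. Of all genes tested 7.84% were called lower. The median was -0.29 in number 1 and -0.86 in number 2, and -0.62 in the untreated pair. Mki67, the Ki-67 proliferation marker gene, was at 555 and 776 CPM against 411 and 389 CPM (-0.71 ± 0.16, adjusted p = 0.0066). Tpx2, a spindle assembly factor gene, was at 132 and 186 CPM against 95.7 and 98.2 CPM (-0.69 ± 0.14, adjusted p = 0.0035). Cdc20, the activator of the anaphase-promoting complex, was at 112 and 163 CPM against 74.8 and 91.4 CPM (-0.71 ± 0.14, adjusted p = 0.002). In each of these 3 genes both SPT6 siRNA libraries lay below both controls.

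Cdc20 is shown as the called mitosis gene with the smallest p whose promoter holds the cell cycle homology region, TTTGAA on either strand. That element is bound by the DREAM and MuvB complexes of cell cycle genes. The sequence is chr4:118437353-118437593, minus strand, RefSeq start and GRCm38.p6, ending 10 bases before the start so as to leave out GENCODE exons. The match, in capitals, is 18 to 13 bases before the start.
Cdc20: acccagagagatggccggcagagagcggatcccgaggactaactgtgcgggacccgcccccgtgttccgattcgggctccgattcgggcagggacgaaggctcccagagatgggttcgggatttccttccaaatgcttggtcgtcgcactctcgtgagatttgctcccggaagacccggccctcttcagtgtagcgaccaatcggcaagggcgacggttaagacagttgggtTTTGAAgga
Among the mitosis genes 86% had a promoter in the table, and 37 of their 52 promoters (71.2%) held TTTGAA, beside 17.9% of all promoters. CCAAT on either strand was in 76.9% of them, beside 37.4% of all promoters. The list was drawn up to hold mitosis genes, so these shares are no check on the siRNA difference.

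Genes that copy DNA were also lower. Of 58 DNA replication genes, 37 were called lower and 0 higher (DESeq2: 11 lower), and 56 lay below 0, with a median of -0.51 (-0.31 in number 1, -0.68 in number 2, -0.28 untreated). Uhrf1, which couples replication to DNA methylation, was at 145 and 257 CPM against 92.2 and 119 CPM (-0.89 ± 0.15, adjusted p = 0.00055). The helicase subunit genes Mcm2 (-0.75 ± 0.14) and Mcm5 (-0.69 ± 0.13) and the checkpoint adaptor gene Clspn (-0.75 ± 0.15) fell. Pcna, the sliding clamp gene, was at 219 and 322 CPM against 247 and 288 CPM (0.01 ± 0.14, adjusted p = 0.98).

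Replication-dependent histone genes, whose mRNAs end in a stem-loop without a poly(A) tail and peak in S phase, had a median of -0.62. Of 54 tested, 43 were called lower (DESeq2: 18) and 53 lay below 0. Hist1h2bb was at 77.5 and 112 CPM against 54.5 and 45.2 CPM (-0.91 ± 0.16, adjusted p = 0.0012), and Hist1h2bg at 68.5 and 92.7 CPM against 47.5 and 43.9 CPM (-0.81 ± 0.15). Their reads may be shared with near-identical family members. Hist2h2be was the exception: it rose from 2.78 and 2.94 CPM to 11.2 and 11.5 CPM (1.99 ± 0.23, adjusted p = 2.7e-05). Of the promoters of this list 84% held CCAAT, beside 37.4% of all promoters. The TATA box core TATAAA, on either strand, was in 60%, beside 13.6% of all promoters. Of the list's members 90.7% had a promoter in the table. The list was drawn up to hold histone genes, so these shares are no check on the siRNA difference. Among 13 genes of histone mRNA 3' end processing, Casp8ap2 was the 1 called (-0.59 ± 0.14), while the stem-loop binding protein gene Slbp was at 0.22. Of 31 genes of histone variants and their chaperones, 8 (25.8%) were called lower and 2 (6.45%) higher (DESeq2: 3 lower, 1 higher), beside 7.84% and 9.1% of all genes tested. The replicative chaperone genes Chaf1a and Chaf1b (-0.66 each) and the H3.3 chaperone gene Daxx (-0.80 ± 0.13) were among those lower, and Spty2d1 (0.76 ± 0.14), an H3-H4 chaperone gene, among those higher.

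Of 37 genes of actin and targets of serum response factor (SRF), 18 were called lower and 0 higher (DESeq2: 15 lower), and 34 lay below 0. The median was -0.48 (-0.48 in number 1, -0.36 in number 2) and -0.06 in the untreated pair. Tagln, or SM22, was at 229 and 117 CPM against 107 and 61.2 CPM (-1.02 ± 0.14, adjusted p = 8.9e-05). Tgfb1i1, a focal adhesion gene, was at 61.1 and 62.4 CPM against 26.9 and 36.3 CPM (-0.98 ± 0.15), and the calponin gene Cnn2 at 442 and 345 CPM against 225 and 210 CPM (-0.84 ± 0.14). Srf itself differed by -0.11 and was not called.

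Myl9, a myosin light chain gene, was at 31.5 and 10.5 CPM against 11.7 and 4.8 CPM (-1.30 ± 0.19, adjusted p = 0.0002). It overlapped between groups because number 2 was lower with either siRNA. Its promoter is shown for the CArG box, the element SRF binds, searched on both strands; the match is in capitals, 161 to 152 bases before the start. The sequence is chr2:156775214-156775419, plus strand, RefSeq start and GRCm38.p6, ending 45 bases before the start to leave out GENCODE exons.
Myl9: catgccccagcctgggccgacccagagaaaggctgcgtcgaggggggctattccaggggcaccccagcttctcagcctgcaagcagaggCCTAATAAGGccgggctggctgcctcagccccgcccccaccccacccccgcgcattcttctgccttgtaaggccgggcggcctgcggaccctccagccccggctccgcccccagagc
CArG boxes were in 9 of 41 promoters of this list (22%), beside 1.63% of all promoters, with 86.5% of the members in the table. The list was drawn up to hold SRF targets, so this share is no check on the siRNA difference.

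Matrix genes were mixed. Of 59 extracellular matrix and integrin genes 15 (25.4%) were called lower and 5 (8.47%) higher (DESeq2: 12 and 4), beside 7.84% and 9.1% of all genes tested. Timp3, a metalloproteinase inhibitor gene, was at 764 and 533 CPM against 367 and 314 CPM (-0.91 ± 0.15), and Col6a2 at 416 and 357 CPM against 254 and 199 CPM (-0.77 ± 0.14). Itga7, the laminin receptor gene, rose from 0.901 and 1.24 CPM to 3.47 and 8.38 CPM (2.47 ± 0.33). Of the 10 fibroblast markers 6 were called lower, and their summed level, scaled by library size alone, was 16593 and 14885 CPM with SPT6 siRNA against 22608 and 18561 with control. In bulk RNA, fewer cells of a type and less RNA per cell cannot be told apart. The part of these markers in the other differences was not tested.

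Lipid synthesis genes were lower. Of 26 cholesterol synthesis genes 12 were called lower and 0 higher (DESeq2: 10 lower) and 25 lay below 0, with a median of -0.41 (-0.40, -0.48 and, untreated, -0.41). Fdps, which makes farnesyl diphosphate, was at 601 and 501 CPM against 369 and 247 CPM (-0.86 ± 0.15, adjusted p = 0.00092), and Mvk, mevalonate kinase, was at 69.7 and 55.4 CPM against 39.1 and 29 CPM (-0.88 ± 0.14). Of 15 fatty acid synthesis genes 4 were called lower and 0 higher (DESeq2: 2 lower), Acss2, Scd2, Elovl6 and Fads2 (-0.66 to -0.56).

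Of 81 cytosolic ribosomal protein genes 80 lay below 0 and 19 were called lower (DESeq2: 16), with a median of -0.37. Rpl28 was at 389 and 347 CPM against 236 and 194 CPM (-0.78 ± 0.14, adjusted p = 0.0012). Ribosomal protein genes have many processed pseudogenes, and what reads shared with those did to these counts was not tested. Host genes of small nucleolar RNAs, which share the same kind of promoter, had 6 of 12 called lower and 1 higher (DESeq2: 4 lower), with a median of -0.46. Gas5 was at 469 and 450 CPM against 344 and 230 CPM (-0.71 ± 0.16, adjusted p = 0.0053), and Snhg5 at 48.8 and 54.6 CPM against 32.2 and 23.6 CPM (-0.90 ± 0.16). Of 40 nucleolar genes of ribosome assembly 3 were called lower, and of 51 translation initiation factors 1, both shares at or under the background of 7.84%.

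Targets of ATF4, the factor of the amino acid response, had 10 of 28 called lower and 0 higher (DESeq2: 5 lower). Pck2 was at 78.4 and 76.7 CPM against 51.5 and 35.9 CPM (-0.85 ± 0.15, adjusted p = 0.00088), and the cystine transporter gene Slc7a11 fell by 0.81 ± 0.16 on the log2 scale. Atf4 itself was at 360 and 404 CPM against 288 and 240 CPM (-0.54 ± 0.15).

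The clearest group among the genes that rose was that of the lysosome, the acidic organelle that digests proteins, lipids and sugars. Of 42 tested, 28 were called higher and 0 lower (DESeq2: 17 higher), and 3 lay below 0. The median was 0.50 (0.47 in number 1, 0.57 in number 2, 0.46 in the untreated pair). For 33 of the 42 both SPT6 siRNA libraries lay above both controls, beside 23% of all genes. The protease genes Ctsb, Ctsd and Ctsl all rose: Ctsb from 484 and 386 CPM to 781 and 756 CPM (0.83 ± 0.15, adjusted p = 0.0016). Gla, alpha-galactosidase, went from 71.3 and 54.4 CPM to 129 and 98.8 CPM (0.86 ± 0.13), and the membrane protein gene Lamp1 from 694 and 814 CPM to 1137 and 1221 CPM (0.65 ± 0.16). The 3 below 0 were the transcription factor genes of the list, Tfeb (-0.25), Mitf (-0.02) and Tfe3 (-0.02), none of them called.

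Cd68, a lysosomal membrane protein gene used as a macrophage marker, rose from 36 and 37 counts to 76 and 114 counts (1.87 ± 0.26, adjusted p = 0.00013). The summed level of 8 macrophage markers, scaled by library size alone, was 15.8 and 18.9 CPM against 8.53 and 7.39 with control siRNA. Among them Tyrobp and Emr1 were at 0 counts in all 4 libraries, and Ptprc had 3 and 1 counts in the controls and 0 and 1 after SPT6 siRNA. Csf1r had 23 and 18 counts against 18 and 37, Cd14 42 and 68 against 45 and 58, Itgam 0 and 0 against 7 and 1, and Lyz2 15 and 6 against 10 and 0. Scaled by library size, Csf1r was at 1.65 and 1.02 CPM against 1.83 and 3.31 CPM. On that scale Cd14 was at 3.01 and 3.86 CPM against 4.56 and 5.19 CPM, and Lyz2 at 1.08 and 0.341 CPM against 1.01 and 0 CPM. Their part in the lysosome result was not tested.

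Atp6v1a encodes the catalytic subunit of the proton pump that acidifies the lysosome. It was at 188 and 169 CPM against 271 and 219 CPM (0.45 ± 0.14, adjusted p = 0.031) and is named here, after its values were seen, for its sequence. It is the called lysosome gene with the smallest p whose upstream bases outside GENCODE exons hold TCACGTGA, the core of the CLEAR element that TFEB and TFE3 bind. The sequence is chr16:44139306-44139461, minus strand, RefSeq start and GRCm38.p6, from 202 to 47 bases before the start. Capitals mark the match at 132 to 125 bases before it.
Atp6v1a: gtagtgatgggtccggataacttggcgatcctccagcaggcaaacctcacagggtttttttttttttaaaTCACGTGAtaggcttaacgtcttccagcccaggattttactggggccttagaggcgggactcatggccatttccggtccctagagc
Of all promoters 0.974% held this core. The share within the lysosome list is not given and was not used as a check, and 76.2% of its members had a promoter in the table.

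Autophagy genes, which deliver cargo to the lysosome, had 7 of 27 called higher and 0 lower (DESeq2: 3 higher), with a median of 0.30. Map1lc3b, the LC3 protein that coats autophagosomes, went from 138 and 94.9 CPM to 287 and 315 CPM (1.40 ± 0.16, adjusted p = 2.2e-05). Its relative Gabarapl2 went from 47.4 and 50.9 CPM to 97.8 and 111 CPM (1.09 ± 0.13) and Wipi2 from 96.2 and 109 CPM to 184 and 224 CPM (0.99 ± 0.14). Sqstm1, the receptor p62, differed by 0.04 and was not called.

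**Figure D4:**
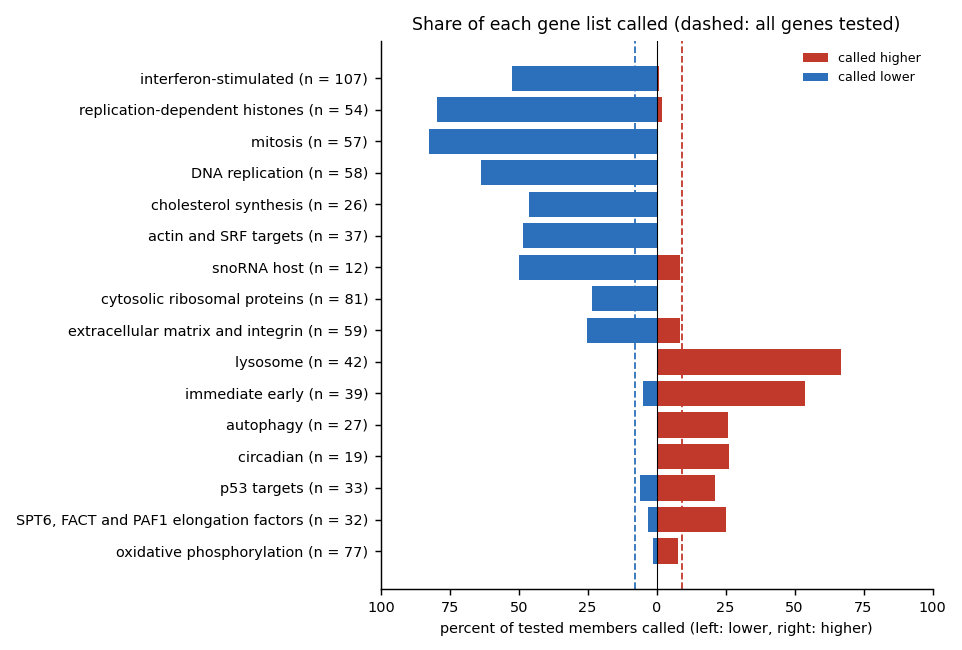
Bars give the percent of tested members of 16 gene lists called lower (blue, to the left) and higher (red, to the right); dashed lines mark 7.84% lower and 9.1% higher among all 12558 genes. Mitosis (82.5%) and replication-dependent histone genes (79.6%) have the longest bars to the left of these lists and lysosome genes (66.7%) the longest to the right.

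Immediate early genes, which respond to growth signals without new protein synthesis, mostly rose. Of 39 tested, 21 were called higher and 2 lower (DESeq2: 9 higher, 1 lower), with a median of 0.48 (0.36 in number 1, 0.49 in number 2, 0.30 untreated). Nr4a1, an orphan nuclear receptor gene, went from 16 and 12.5 CPM to 46.4 and 68.4 CPM (2.002 ± 0.19, adjusted p = 1.91e-06). Nr4a2 went from 8.63 and 8.59 CPM to 20.6 and 37 CPM (1.71 ± 0.20). The small MAF genes Maff (1.22 ± 0.15) and Mafk (0.90 ± 0.14) rose, from 16.7 and 26.4 CPM to 38.4 and 62.2 CPM in the case of Maff. The AP-1 family was split: Fosb (1.85 ± 0.40), Atf3 (1.51 ± 0.27), Fos (1.06 ± 0.31) and Junb (0.78) rose, whereas Jun fell from 105 and 140 CPM to 86.4 and 92.6 CPM (-0.44 ± 0.14). Egr1 was at 18.4 and 32.4 CPM against 14.3 and 28.5 CPM and was not called (-0.27 ± 0.16). Ctgf, a target of YAP and TEAD as well, fell from 359 and 464 CPM to 202 and 279 CPM (-0.78 ± 0.14).

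Growth factor genes near this response also moved. Hbegf, a ligand of the EGF receptor, went from 18.5 and 40.3 CPM to 53.1 and 126 CPM (1.58 ± 0.14, adjusted p = 1.4e-06), and Ereg, another, from 47 and 150 CPM to 121 and 275 CPM (1.11 ± 0.15), with overlapping groups. Igfbp6, which binds IGF2, went from 223 and 231 CPM to 480 and 531 CPM (1.15 ± 0.14). Igf1 fell by 0.77 ± 0.15 on the log2 scale, from 103 and 15.1 CPM to 62.7 and 8.38 CPM. Among 20 genes of ERK feedback 5 were called higher and 1 lower (DESeq2: 3 higher), with the phosphatase gene Dusp4 at 21.1 and 53.4 CPM against 60.4 and 87 CPM (1.09 ± 0.17). Of 25 NF-kappaB and cytokine genes 4 were called higher (DESeq2: 2): the inhibitor gene Nfkbia (0.87 ± 0.14), Lif, Nfkbiz and Sod2. These shares were 25% higher and 5% lower for ERK feedback and 16% higher for NF-kappaB and cytokine genes. Over all genes tested they were 9.1% higher and 7.84% lower.

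Stress pathways gave mixed pictures, beside 9.1% of all genes tested called higher and 7.84% called lower. Of 29 unfolded protein response genes 6 were called higher and 3 lower (DESeq2: 3 and 2). Dnajb9, an endoplasmic reticulum chaperone gene, went from 19.1 and 15.8 CPM to 36.4 and 42.9 CPM (1.19 ± 0.16), and the sensor gene Atf6 from 122 and 128 CPM to 218 and 273 CPM (0.97 ± 0.14). Xbp1 (-0.62 ± 0.13) and Ddit3, or CHOP (-0.75 ± 0.18), fell. Of 33 p53 targets 7 were called higher and 2 lower, led by Rrm2b (0.83 ± 0.16), and Cdkn1a, or p21, rose from 53.1 and 57.7 CPM to 71.7 and 84.4 CPM (0.49 ± 0.13, adjusted p = 0.018); DESeq2 called 1 higher. Of 19 circadian genes 5 were called higher and 0 lower, with Per1 at 16.1 and 11.7 CPM against 19.1 and 33.6 CPM (0.91 ± 0.22), and DESeq2 called 1. Of 21 heat shock genes 4 were called higher and 1 lower (DESeq2: 2 higher), and of 35 glycolysis and hypoxia genes 5 higher and 0 lower (DESeq2: 3 higher). The shares called higher in these lists ran from 14.3% (glycolysis and hypoxia) to 26.3% (circadian). The shares called lower were near or under that of all genes: 10.3% for the unfolded protein response, 6.06% for p53 targets and 4.76% for heat shock.

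Factors that travel with the polymerase, as SPT6 does, were next. Of 32 elongation factor genes 8 were called higher and Supt6 was the 1 called lower (DESeq2: 3 higher, Supt6 lower). Paf1, the PAF1 complex subunit gene (chromosome 7, 28392951 to 28399388), went from 30.5 and 34.8 CPM to 58.5 and 69 CPM (0.96 ± 0.14, adjusted p = 0.00018). Eaf1 (0.65 ± 0.14) and Eaf2 (1.53 ± 0.42), partners of ELL in the super elongation complex, and Tceb3, or elongin A (0.55 ± 0.13), rose. Supt4a, a subunit of the SPT4-SPT5 factor DSIF, rose by 0.49, and Supt5, its partner, differed by 0.37 and was not called. The SPT6 partner gene Iws1 differed by 0.08, and the FACT subunit genes Supt16 and Ssrp1 by -0.16 and -0.36, none of them called. Of 20 genes of pausing and release 1 was called higher (5%) and 2 lower (10%), near the shares of all genes (9.1% and 7.84%), and DESeq2 called none. The kinase gene Cdk9 rose from 31.2 and 28.6 CPM to 39.8 and 57.9 CPM (0.69 ± 0.16), while Nelfa (-0.51 ± 0.15) and Larp7 (-0.45 ± 0.14) fell. Among 13 RNA polymerase II subunit genes Polr2g (0.46 ± 0.14) was called higher beside Polr2l (DESeq2: 1 higher). Polr2a, the largest subunit, was at 75.9 and 79.4 CPM against 68.6 and 167 CPM, so SPT6 siRNA number 2 alone was high (0.48 ± 0.24, adjusted p = 0.21). Of 25 genes of H3K36 and related methylation 1 was called higher (4%) and 2 lower (8%), again near or under the shares of all genes (DESeq2: 1 lower). Nsd1 rose (0.47 ± 0.14) and Whsc1, or Nsd2 (-0.42 ± 0.14), and Morf4l1, or MRG15 (-0.63 ± 0.15), fell.

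Noncoding transcripts of 1 imprinted domain fell together. Meg3 (chromosome 12, 109541001 to 109571726), Rian (109603940 to 109661716) and Mirg (109729764 to 109749460) are long noncoding RNA genes that lie in a row on chromosome 12 and are expressed from the maternal copy. Meg3 was at 141 and 107 CPM against 66.2 and 60.2 CPM (-0.96 ± 0.14, adjusted p = 0.00016). Rian was at 237 and 203 CPM against 144 and 97.3 CPM (-0.89 ± 0.14), and Mirg at 9.23 and 7 CPM against 3.88 and 3.67 CPM (-1.09 ± 0.24). Rtl1, which lies between Meg3 and Rian at 109589193 to 109600330 on the minus strand, is among the 15 lowest genes above. Dlk1, a coding gene of the same domain, was at 792 and 832 CPM against 527 and 716 CPM (-0.40 ± 0.16, adjusted p = 0.091). Meg3, Rian and Mirg were the 3 called lower (27.3%) among 11 nuclear long noncoding RNA genes. They were also 3 of the 4 called lower (23.5%) among 17 imprinted genes, of which 2 (11.8%) were called higher. Over all genes tested 7.84% were called lower and 9.1% higher. The other one lower in the imprinted list was Dcn, and that list did not include Rtl1. DESeq2 called 2 lower in the first list and 3 lower and 1 higher in the second. Malat1 and Neat1 differed by -0.33 each and were not called.

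Without IFN-beta the same siRNA comparison could be read in 1 pair, which shares no library with the other 4. Of the 1143 genes called higher with IFN-beta, 90.7% were above 0 in that pair, and of the 985 called lower 92.7% were below 0, beside 71.6% of all genes tested that had the same sign in both settings. The median difference of the genes called higher was 0.61 and 0.84 in numbers 1 and 2 and 0.50 untreated, and that of the genes called lower was -0.48, -0.72 and -0.38. Differences past 1.5-fold in all 3 pairs were seen in 344 of the genes called higher and 77 of those called lower. Among all 12558 genes tested, these included, there were 492. All 6 libraries set the normalisation factors.

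**Figure D5:**
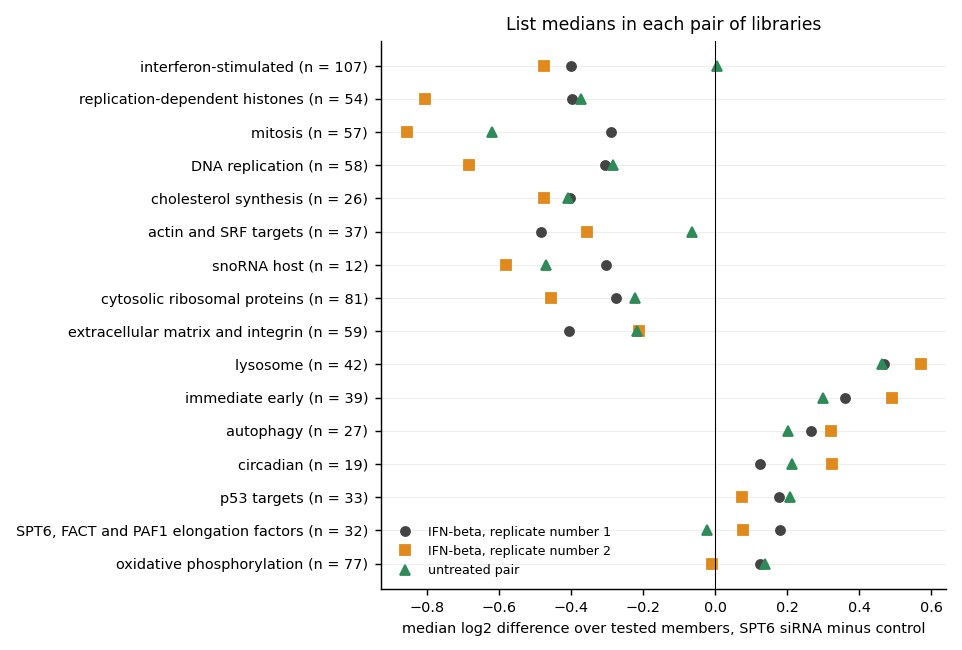
Points give the median log2 difference (SPT6 siRNA minus control) over the tested members of 16 gene lists in each pair of libraries: circles for replicate number 1 and squares for number 2, both with IFN-beta, and triangles for the untreated pair. Interferon-stimulated genes (0.01) and actin and SRF targets (-0.06) lie near 0 in the untreated pair, while lysosome genes lie at 0.46 to 0.57 in all 3. Some interferon-stimulated genes were almost absent without IFN-beta, which pulls their untreated differences towards 0.

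Whether the siRNA difference itself depended on IFN-beta was tested over all 6 libraries with the number as a block and 1 untreated library per siRNA. Of 13185 genes 3 were called higher and 1 lower (0.0303%), with 508 at an unadjusted p under 0.05. Under IFN-beta Nr4a1 had 213 counts in each control library, against 455 and 784 after SPT6 knockdown. Without IFN-beta it had 550 counts in the control library and 316 in the SPT6 siRNA library. These counts are not scaled for depth. Normalised, its log2 difference was 1.53 and 2.43 in numbers 1 and 2 and -0.25 untreated, from 1 library per siRNA. The median absolute siRNA difference over all genes tested was 0.22 and 0.31 in numbers 1 and 2. The siRNA differences with and without IFN-beta had opposite signs, and they differed by 2.24 ± 0.27 on the log2 scale (adjusted p = 2.46e-12). Nr4a2 (2.002 ± 0.31) and Rcan2, an inhibitor of calcineurin (1.88 ± 0.40), did likewise. Gbp2, an interferon-induced GTPase gene, had 3449 and 1920 counts against 1922 and 859 under IFN-beta, and 104 against 135 without it (-1.43 ± 0.29). Its normalised log2 difference was -0.49 with IFN-beta and 0.91 without it. No gene was called without the block or at a mean count of at least 50, and DESeq2 called 1 higher and limma-voom 2.

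The called genes were close to the rest in structure. The median gene length was 23.5 kb for genes called higher, 21.5 kb for those called lower and 23.5 kb for all tested, and the share called higher was between 8.41% and 9.93% in each of 5 equal bins of gene length. The shares varied more with level: by mean level per kb of exon, 12.8% of the lowest of 5 bins were called higher and 3.06% lower, against 8.21% and 11.7% in the top bin. Noncoding classes leaned upward, as did the lowest level bin, and the part of level in their lean was not tested. Of 149 genes annotated as antisense, 24 were called higher and 1 lower, of 143 lincRNAs 25 and 8, and of 25 noncoding RNAs from bidirectional promoters 7 and 0, beside 1037 and 955 of 11831 protein-coding genes. The sources used here do not give the strand setting of the counting, so antisense reads cannot be told apart from those of the gene opposite.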

How the data were processed

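Total RNA of 6 NIH3T3 samples was sequenced as paired ends. The deposited files hold raw read counts per gene symbol; per the submitters' processing notes, which list the mm10 (GRCm38) build, the tools were DESeq2, HTSeq 0.6.1p1 and TopHat2 2.1.0. The annotation and the strand setting are not given in the sources used here. Lines for reads in no gene were left out of library sizes. Gene counts ran from 7935961 to 17596498 per library; each library's depth sets its counting error.

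Genes were kept by filterByExpr with a minimum count of 10, and TMM factors were set over all 6 libraries. The test was edgeR 4.0.16's quasi-likelihood test (robust, R 4.3.3) on the 4 IFN-beta libraries with replicate number as a block, adjusted by Benjamini-Hochberg and called under 0.05; log2 differences use it. The block was used because the comparison is within replicate number. The numbers come from the sample titles, which do not say what they mark. Alternatives used DESeq2 1.42.0 and limma 3.58.1. The method was tested on simulated data.

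The members and gene lists were chosen with earlier results of these data known. Named genes were the 15 highest and 15 lowest called genes past an average log2 CPM of 3 whose groups did not overlap, 12 chosen interferon-stimulated genes, and from each list the 4 or fewer of smallest p; others were named after their values were seen. Some items are not reported here. GENCODE M21 gave coordinates for 23622 of 24062 symbols. Promoters are RefSeq's (GRCm38.p6).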

Additional observations from a re-analysis of the deposited data

Results flagged for a closer look

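In 4 genes the siRNA difference with IFN-beta differed from that without it, by edgeR's quasi-likelihood test of the difference itself; the untreated arm has 1 library per siRNA, assumed to vary like the others. Nr4a1 differed by 2.24 ± 0.27 on the log2 scale (adjusted p = 2.46e-12), with 1.53 and 2.43 in numbers 1 and 2 and -0.25 untreated. Nr4a2 differed by 2.002 ± 0.31 (adjusted p = 1.2e-06), with 1.24, 2.09 and -0.30. Rcan2 differed by 1.88 ± 0.40 (adjusted p = 0.0102), with 0.50, 1.54 and -0.82. Gbp2 differed by -1.43 ± 0.29 (adjusted p = 0.00514), with -0.40, -0.59 and 0.91. The cause of these differences was not tested.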

How the results depend on the processing

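Without the replicate block the count of genes called higher and lower was 0 and 0 over the 4 IFN-beta libraries (1493 at an unadjusted p under 0.05), over all 6 (1579), and over all 6 with each IFN-beta library left out in turn; Supt6 was then at -0.89 with an adjusted p of 0.248. DESeq2 with the block called 335 higher and 289 lower, of which 621 were among the 2128 edgeR calls, and edgeR's test against a 1.2-fold change called 546 and 290. Blocking over 3 matched pairs called 1561 and 1597. Leaving out a replicate number and blocking over the pairs left gave 1019 to 1317 higher and 918 to 1307 lower. The untreated pair is part of these fits and of the one over 3 pairs. They therefore average the siRNA difference over cells with and without IFN-beta. With limma-voom 1201 and 1037 were called, of which 2095 were shared. For the difference between the 2 settings, 0 genes were called either way without the block (49 at an unadjusted p under 0.05) and at a mean count of at least 50 (306), 1 higher and 0 lower by DESeq2, and 2 higher and 0 lower by limma-voom and by library size alone. None of 43 single genes followed, Supt6 included, changed sign in the settings run for them. The 15 highest and 15 lowest were picked for moving the same way in both numbers with groups apart. Their signs could therefore not change, and this is no check on them. Of the medians of 55 lists, 19 changed sign in some setting: 9 with library size alone, 1 with DESeq2's size factors, 7 without replicate 1 and 10 without replicate 2. Apart from the 2 endothelial markers tested (0.89, and -0.07 without replicate 2), these medians lay between -0.20 and 0.10, and the report's text prints none of them. Of 42 other named genes followed, 41 lost their call without the block, and Irf7 had none in either fit. An alternative chosen after seeing the data, with control libraries thinned to SPT6 siRNA depth, called 1185 and 1105. With 2 pairs and 1 residual degree of freedom, the cause of the loss without the block was not tested.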
